A study of Mus musculus with 4 samples.

Results

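The 10 genes described here are ancillary naive-state genes of mouse embryonic stem (ES) cells: Nr0b1, Nr5a2, Prdm14, Tbx3, Gbx2, Sox15, Tcl1, Fbxo15, L1td1 and Jam2. They were taken by name from a table of 50600 gene rows, and each name matched 1 row. The table held 4 RNA-seq libraries of OG2ES cells, an ES cell line labelled as derived from the inner cell mass, 2 of wild-type (WT) genotype and 2 of genotype Myh9 KO. Both groups were kept in mES medium with 2i, the inhibitor pair against MEK and GSK3, and received no other treatment. Myh9 codes for the heavy chain of a non-muscle myosin, IIA. How the KO allele was made, and whether the KO cells were 1 clone, is not given in the sources used here, so a trait of that line cannot be told apart from the loss of Myh9. Nothing ties the 2 libraries of a group to different cultures, so p-values measure the spread between libraries, which may be technical. In bulk RNA, fewer cells of one state and less RNA per cell cannot be told apart.

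The naive state is the ground state of mouse ES cells, held by a network around Oct4, Sox2, Nanog, Esrrb and the Klf factors and fed by LIF, WNT and low ERK signalling. Ancillary members of the network add redundancy: most are switched on by the core factors, several can support self-renewal when overexpressed, and many are turned down as cells leave the naive state. The 10 genes comprise orphan nuclear receptors (Nr0b1, Nr5a2), other transcription factors (Prdm14, Tbx3, Gbx2, Sox15), a co-activator of AKT kinase (Tcl1) and markers with other functions (Fbxo15, L1td1, Jam2).

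Of the 10 genes, Nr0b1, Tcl1 and Fbxo15 fell in Myh9 KO, and 7 were not called, none as higher. At an unadjusted p under 0.05 limma gave 4 lower and 1 higher. The share of all tested genes under that unadjusted threshold was not counted, so the unadjusted counts have no background to be read against. A gene was written as having risen or fallen only when called in that direction by 2 tests, both at a Benjamini-Hochberg adjusted p under 0.05 over all 11231 genes tested. The first, called the designed test, was limma-trend on log2(value + 1). The second repeated it after a random fraction was added to each whole-number value, and is called random decimals. Over all genes tested, 5.80% were lower and 5.16% higher by both tests, and 7.96% and 7.17% by the designed test. Random decimals called 5 of the 10 genes, the 3 above with Jam2 lower and Nr5a2 higher, where 23.0% of all genes tested were called in either direction and 12.0% as lower. All 10 genes passed the filter of a mean value of at least 1. Their median log2 fold change was -0.29, with 7 values below 0 and 3 above, while over all tested genes the median was 0.00, with 47.9% of values below 0 and 45.2% above. In 6 of the 10 genes both Myh9 KO libraries lay below both WT libraries, a pattern seen in 27.3% of all genes tested, and in 1 gene both lay above, against 26.2%.

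**Figure D1:**
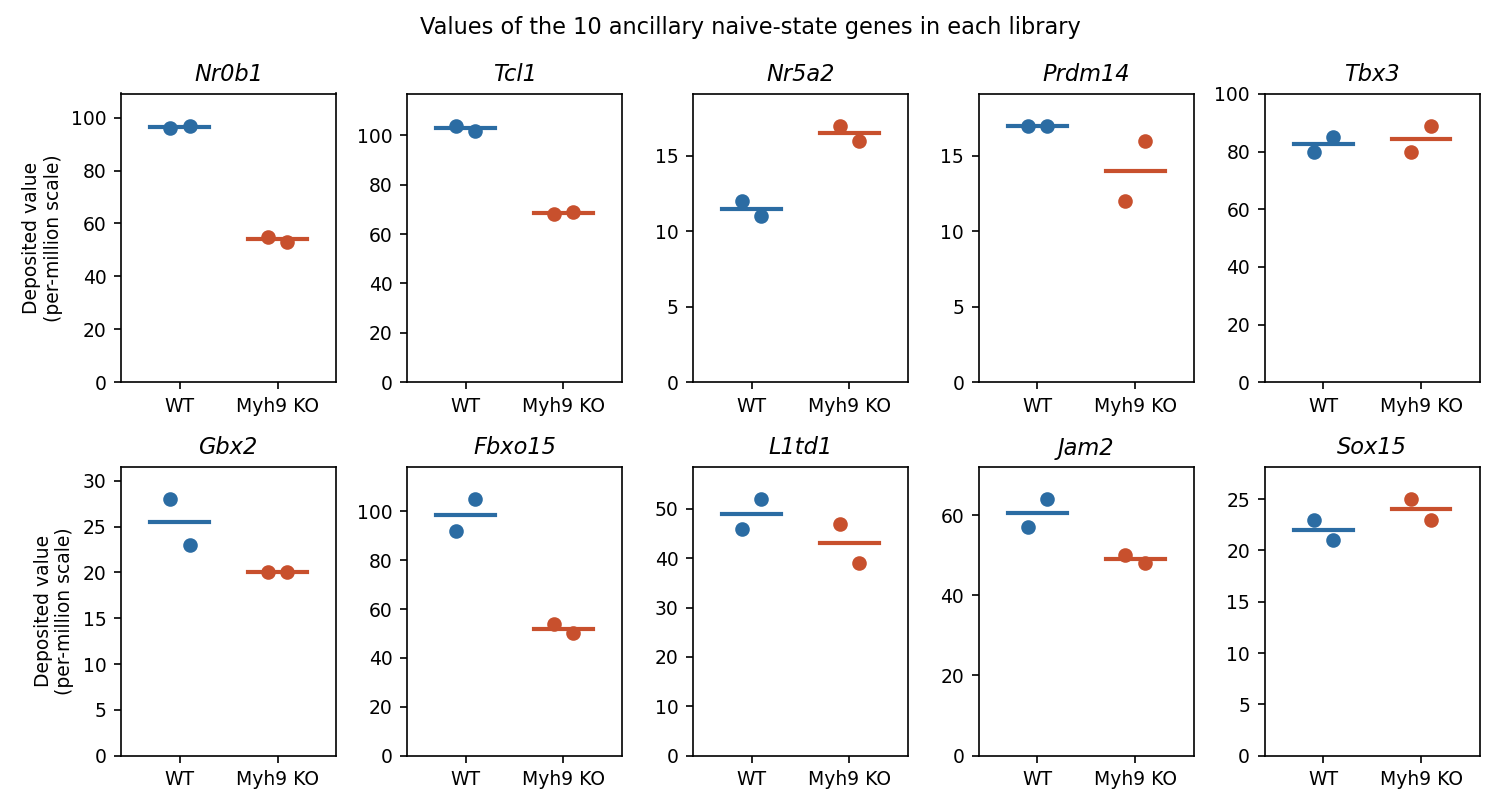
Each panel shows 1 gene, with the deposited value of each library on a linear axis from 0 (points) and the group mean (line) for WT (blue) and Myh9 KO (orange). Nr0b1, Tcl1 and Fbxo15 sit clearly lower in Myh9 KO, Nr5a2 is the one gene with both Myh9 KO points above both WT points, and Tbx3, L1td1 and Sox15 overlap between groups.

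The promoters of the pair of genes that fell with the least spread between libraries, Nr0b1 and Tcl1, and of Nr5a2, whose values lay in the opposite direction, are shown for comparison of their starts. The sequences are RefSeq promoter windows on GRCm38.p6, from 250 bases before to 50 bases after the annotated start, printed on the gene's own strand. Capitals mark matches, on either strand, to the 6 motifs searched, which are named after the sequences. The windows are chrX:86191525-86191824 (plus strand) for Nr0b1, chr12:105222688-105222987 (minus strand) for Tcl1 and chr1:136960399-136960698 (minus strand) for Nr5a2.
Nr0b1: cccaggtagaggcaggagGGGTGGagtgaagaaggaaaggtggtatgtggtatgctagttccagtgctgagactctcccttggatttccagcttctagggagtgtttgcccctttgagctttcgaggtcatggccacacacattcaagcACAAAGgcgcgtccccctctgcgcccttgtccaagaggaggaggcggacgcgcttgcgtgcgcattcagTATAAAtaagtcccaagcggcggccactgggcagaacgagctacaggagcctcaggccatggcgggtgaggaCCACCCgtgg
Tcl1: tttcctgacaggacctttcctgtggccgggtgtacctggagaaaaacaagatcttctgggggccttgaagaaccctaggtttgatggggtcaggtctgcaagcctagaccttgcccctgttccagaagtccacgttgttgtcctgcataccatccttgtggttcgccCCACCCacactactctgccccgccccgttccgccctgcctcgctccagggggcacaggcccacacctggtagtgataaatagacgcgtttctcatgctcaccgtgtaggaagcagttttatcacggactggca
Nr5a2: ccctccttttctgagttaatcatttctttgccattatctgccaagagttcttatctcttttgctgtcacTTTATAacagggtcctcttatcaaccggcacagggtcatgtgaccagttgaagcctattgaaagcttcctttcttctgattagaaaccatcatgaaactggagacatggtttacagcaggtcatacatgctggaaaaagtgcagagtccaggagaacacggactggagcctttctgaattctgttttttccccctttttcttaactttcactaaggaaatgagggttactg

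The motifs were the POU octamer ATGCAAAT, the SOX core ACAAAG, the extended half-site AAGGTCA of orphan nuclear receptors such as Esrrb and Nr5a2, the STAT palindrome TTCCNGGAA, the KLF core CCACCC and the TATA box TATAAA. No motif shares its letters with another in these windows. The Nr0b1 window held a TATA box whose first base is at -32 from the start, a SOX core at -101 and KLF cores at -232 and 41. Of all 32851 promoter windows in the table, 13.6% held the TATA letters, 18.7% the SOX core and 31.5% the KLF core. The Tcl1 window held a single match, a KLF core at -83. The Nr5a2 window held only TATA letters on the reverse strand at -181, and its second annotated window, beginning at 136953581, held a SOX core and 2 KLF cores. The windows of L1td1 and Sox15 each held 1 KLF core, that of Sox15 also a SOX core, and that of Gbx2 held none of the 6. The octamer, the nuclear receptor half-site and the STAT palindrome, found in 1.74%, 4.72% and 1.15% of all windows, were not matched in any of the 7 windows of these 6 genes. A match is a description of letters, not of binding. GC content was 58.7% in the Nr0b1 window, 56.7% in that of Tcl1 and 42.0% in the printed window of Nr5a2. The second Nr5a2 window had 49%, and the median of all windows was 52.7%.

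Nr0b1 (ENSMUSG00000025056, mm10 chromosome X, 86191764 to 86195947, plus strand, 2 exons) codes for DAX1, an atypical nuclear receptor without the usual DNA-binding domain that acts as a repressor of other receptors and also binds Oct4. WT 1 and WT 2 were at 96 and 97, and Myh9 KO 1 and Myh9 KO 2 at 55 and 53. The groups were far apart next to the gap between replicates, which was 1 in WT and 2 in Myh9 KO. This was a log2 fold change of -0.83 (SE 0.03, n = 2 libraries per group, limma adjusted p = 0.0052), a fold of 0.564 with a 95% confidence interval of 0.529 to 0.601. With random decimals the adjusted p was 0.000105. The designed test lost the call without WT 1 (adjusted p = 0.062) or without WT 2 (0.0636), whereas with random decimals the adjusted p did not exceed 0.00102 whichever library was removed.

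Nr5a2 (ENSMUSG00000026398, chromosome 1, 136842571 to 136960448, minus strand) codes for LRH-1, an orphan nuclear receptor that binds Oct4 regulatory regions and can stand in for Oct4 during reprogramming. The WT libraries were at 12 and 11 and the Myh9 KO libraries at 17 and 16. Both Myh9 KO libraries were above both WT libraries, at a low level where a missing decimal matters. KO and WT differed by a log2 fold change of 0.49 (SE 0.07; adjusted p by limma = 0.0517), just outside the threshold, and random decimals gave an adjusted p of 0.0209. The interval of its fold was 1.20 to 1.64. The ratio of group means was 1.43, and decimals that were rounded off or dropped from the values could place it between 1.28 and 1.59. Nr5a2 was called by the designed test after removal of the trend on GC content and length (log2 fold change 0.63, adjusted p = 0.0156), with a filter at a mean value of 10 (0.0316) and with median-of-ratios scaling (0.0481). Its transcript has a GC content of 43.2%, and the fifth of tested genes with the lowest GC content had a median log2 fold change of -0.15, opposite in sign to that of Nr5a2.

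Because DAX1 acts on receptors of the Nr5a family, the values of this pair were set side by side. The Nr5a2 value divided by the Nr0b1 value was 0.125 and 0.113 in the WT libraries and 0.309 and 0.302 in the Myh9 KO libraries. The ratio was thus 2.56-fold higher on average in Myh9 KO, with no overlap between groups, which in part restates the fall of Nr0b1. The pair was chosen after its values were seen and the ratio was not tested. The share of other gene pairs without overlap was not counted. Nr5a1, the paralog of Nr5a2, was listed at 0 in all 4 libraries. The receptor co-activator gene Ncoa3 was at 39 and 39 in WT, then 36 and 39 in Myh9 KO and was not called.

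Prdm14 (ENSMUSG00000042414, chromosome 1, 13113457 to 13127163, minus strand) codes for a PR-domain protein that represses FGF receptor signalling and DNA methyltransferase genes in ES cells. WT values were 17 and 17, against Myh9 KO values of 12 and 16. The Myh9 KO libraries differed from each other by more than Myh9 KO 2 differed from WT. The difference on the log2 scale was -0.28 (SE 0.17, limma adjusted p = 0.398), with an interval of the fold from 0.547 to 1.25. Without Myh9 KO 2 the log2 fold change was -0.47, and without Myh9 KO 1 it was -0.08. Its co-repressor gene Cbfa2t2 had values of 23 and 23, then 22 and 20, and was not called. Of the DNA methyltransferase genes, Dnmt3l rose, from 320 and 336 in the WT libraries to 618 and 620 in those of Myh9 KO (limma log2 fold change 0.91 with adjusted p = 0.00614). Dnmt3b was lower, at 103 and 111, then 75 and 81, when called with random decimals (adjusted p = 0.002915) but not by the designed test (0.0612).

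Tbx3 (ENSMUSG00000018604, chromosome 5, 119670669 to 119684724, plus strand) codes for a T-box factor that supports self-renewal downstream of PI3K and AKT and is also linked to extraembryonic endoderm. In WT its values were 80 and 85, and in Myh9 KO they were 80 and 89. The groups overlapped, and the lowest WT and Myh9 KO values were equal. That gave a log2 fold change of 0.03 (SE 0.08, adjusted p by limma = 0.815). The 95% interval of the fold ran from 0.849 to 1.23, so a change within that range is not excluded by these libraries. The sign turned to -0.11 after the trend on GC content and length was removed. Its antisense neighbour Tbx3os1, which shares 115 of 6624 exon bases with Tbx3, was at 0 and 1 in WT, then 2 and 5 in Myh9 KO. The library protocol describes no strand mark, so reads in shared exons cannot be assigned.

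Gbx2 (ENSMUSG00000034486, chromosome 1, 89927956 to 89931179, minus strand) codes for a homeobox factor known as a STAT3 target that sustains self-renewal. The WT libraries were at 28 and 23, against Myh9 KO values of 20 and 20. Both Myh9 KO values were below WT, but the WT libraries differed from each other by 5. This was a log2 fold change of -0.33 (SE 0.12; adjusted p by limma = 0.202; fold interval 0.595 to 1.065). Without WT 2 the difference was -0.47, and without WT 1 it was -0.19. Gbx2 passed the designed test after removal of the GC and length trend (-0.45, limma adjusted p = 0.0488). Of the 2177 exon bases of Gbx2, 946 (43.5%) are shared with D130058E05Rik on the opposite strand, which had values of 4 and 6, then 5 and 3. Stat3 itself was at 37 and 41 in WT, then 45 and 45 in Myh9 KO (adjusted p = 0.174), and the STAT3 target Socs3 had 46 and 50, then 44 and 53. Both were chosen after their values were seen.

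Sox15 (ENSMUSG00000041287, chromosome 11, 69655314 to 69656727, plus strand) codes for an HMG-box factor that can bind DNA together with Oct4 as Sox2 does. WT values were 23 and 21, and Myh9 KO values were 25 and 23. The groups touched at 23. KO and WT differed by a log2 fold change of 0.12 (SE 0.08; adjusted p by limma = 0.398; fold interval 0.904 to 1.31). Sox2, the core factor of the same family, fell, from 177 and 183 in the WT libraries to 126 and 121 in those of Myh9 KO (limma log2 fold change -0.54 with adjusted p = 0.0178). Sox15 shares 31 of its 861 exon bases with Mpdu1 on the opposite strand, a gene with much higher values that rose from 240 and 249 to 297 and 312 (limma adjusted p = 0.047). The part of those reads in the Sox15 values was not tested.

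Tcl1 (ENSMUSG00000041359, chromosome 12, 105216750 to 105222793, minus strand, 4 exons) codes for a small protein that binds AKT and raises its activity, and is a target of Oct4 in ES cells. In WT its values were 104 and 102, against Myh9 KO values of 68 and 69. Neither group spread by more than 2, and the groups did not overlap. The difference on the log2 scale was -0.58 (SE 0.02, limma adjusted p = 0.00526), a fold of 0.668 (95% interval 0.639 to 0.699), and random decimals gave an adjusted p of 0.000435. Tcl1 was the one of the 3 genes that stayed called by both tests with any 1 library left out, at adjusted p of at most 0.0424. Its kinase partner gene Akt1 rose, from 28 and 29 in the WT libraries to 40 and 40 in those of Myh9 KO (limma log2 fold change 0.48, SE 0.03 with adjusted p = 0.0138). Akt2 had values of 82 and 89, then 84 and 88, and was not called. The Tcl1 family genes Tcl1b1 and Tcl1b2 were listed at 0 throughout.

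Fbxo15 (ENSMUSG00000034391, chromosome 18, 84935158 to 84981376, plus strand) codes for an F-box protein, a direct Oct4 and Sox2 target long used as a reporter of reprogramming. The WT libraries were at 92 and 105 and the Myh9 KO libraries at 54 and 50. This was the largest difference among the 10 genes, and also the widest gap between WT libraries in deposited value, 13. That gave a log2 fold change of -0.91 (SE 0.10; adjusted p by limma = 0.0366), a fold of 0.533 (95% interval 0.423 to 0.673), and random decimals gave 0.000199. The designed test lost the call with any 1 of the 4 libraries left out (adjusted p = 0.1045 to 0.1835), while random decimals kept it each time, at or below 0.00139. Fbxo15 has a GC content of 43.4%, in the class of genes whose median was -0.15. In that class the median difference of Myh9 KO 2 from Myh9 KO 1 was -0.14. Its log2 fold change was -0.70 (limma adjusted p = 0.00317) once the GC and length trend was removed. With that trend removed the difference of Nr0b1, at -0.86, was larger than that of Fbxo15. Its SCF complex partner gene Skp1a fell, from 215 and 213 in the WT libraries to 167 and 157 in those of Myh9 KO (limma log2 fold change -0.40 with adjusted p = 0.0343). The Skp1a difference shrank to -0.16 (limma adjusted p = 0.0461) once the GC and length trend was removed. Cul1 (17 and 15, then 21 and 15) and Rbx1 (130 and 120, then 113 and 108), the other SCF genes, were not called.

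L1td1 (ENSMUSG00000087166, chromosome 4, 98726734 to 98738480, plus strand) codes for an RNA-binding protein derived from a LINE-1 element and found in complexes with LIN28. WT values were 46 and 52, against Myh9 KO values of 47 and 39. The groups overlapped. This was a log2 fold change of -0.19 (SE 0.14; adjusted p by limma = 0.451; fold interval 0.629 to 1.23). Lin28a rose, from 111 and 114 in the WT libraries to 215 and 217 in those of Myh9 KO (limma log2 fold change 0.94, SE 0.02 with adjusted p = 0.00274). Lin28b was at 1 in every library.

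Jam2 (ENSMUSG00000053062, chromosome 16, 84774123 to 84825928, plus strand) codes for a junctional adhesion molecule, a surface protein of tight junctions. In WT its values were 57 and 64, and in Myh9 KO they were 50 and 48. Both Myh9 KO values were lower than WT, and the nearest values of the groups were as far apart (7) as the WT libraries were from each other. KO and WT differed by a log2 fold change of -0.30 (SE 0.08, fold interval 0.676 to 0.981), with a limma adjusted p of 0.131 by the designed test and 0.0352 with random decimals. Its paralog Jam3 showed the same split between tests, at 30 and 33, then 23 and 21 (log2 fold change -0.50, adjusted p = 0.0694 and 0.00918). F11r, the gene of JAM-A, was at 38 and 41 in WT, then 41 and 40 in Myh9 KO and was called by neither test. These paralogs were chosen after their values were seen.

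**Figure D2:**
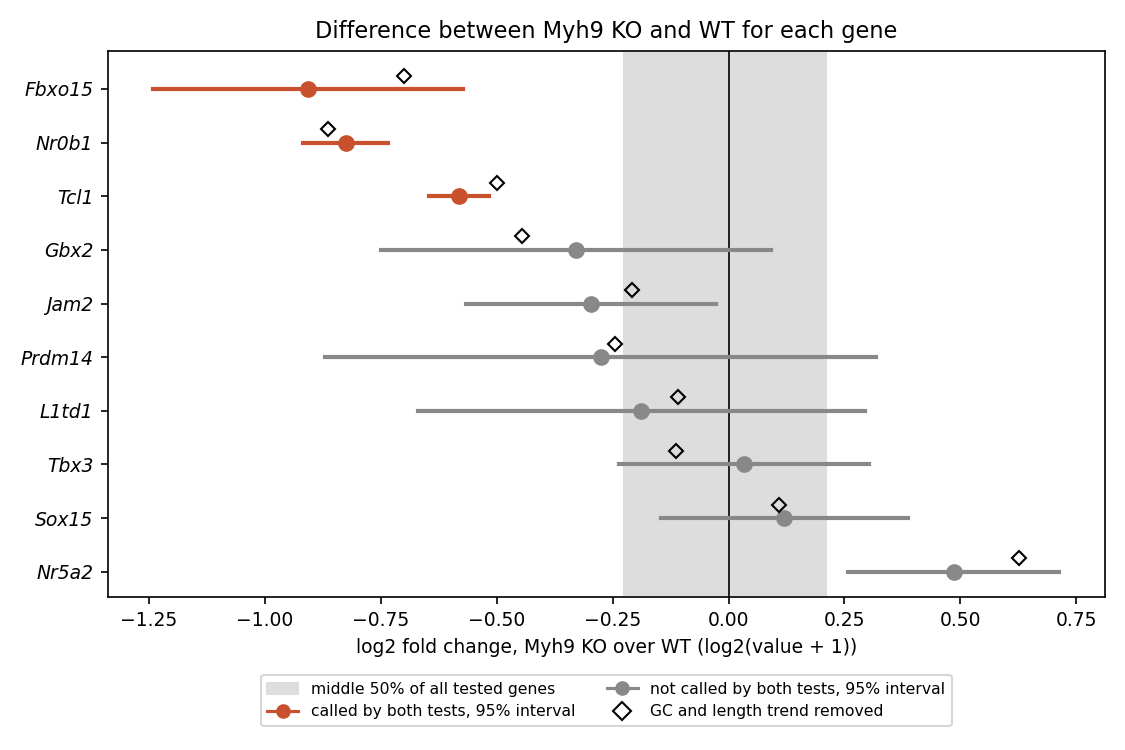
Log2 fold change of each gene, Myh9 KO over WT on the log2(value + 1) scale, with the 95% confidence interval of the designed test (circles and lines, n = 2 libraries per group), the value after removal of the trend on GC content and length (diamonds) and the middle 50% of all tested genes (grey band). The intervals of Fbxo15, Nr0b1, Tcl1 and Jam2 lie wholly below 0 and that of Nr5a2 wholly above, though Jam2 and Nr5a2 were not called after adjustment; the intervals of Gbx2, Prdm14, L1td1, Tbx3 and Sox15 include 0.

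Levels were not compared between genes, because it is not stated whether the values were divided by transcript length. The gene closest to Fbxo15 in its pattern over the 4 libraries, among the 6583 others whose mean value reached 10, was Mfsd1 (32 and 36 in WT, 18 and 17 in Myh9 KO), at a Euclidean distance of 0.03 on centred log2 values. Brwd1 and Vwa3b, each at 19 and 21, then 11 and 10, followed at 0.054. Likeness over 4 libraries of 2 groups mostly restates the difference between the groups.

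Around these genes, 3 of 19 core and other naive pluripotency genes fell and 0 rose by both tests, with a median log2 fold change of -0.05. At an unadjusted p under 0.05 by limma 8 of the 19 were lower and 1 higher, and the share of all genes there was not counted. By random decimals without the designed test 8 were lower and 1 higher, where 23.0% of all genes were called in either direction. Those that fell were Sox2, Dppa3 (22 and 22 to 8 and 9) and Dppa5a (4755 and 4841 to 3438 and 3205). Values of Dppa3 and Dppa5a are uncertain, since 16.5% and 38.6% of their transcript words of 50 bases also occur in other genes. Oct4 (Pou5f1), Nanog and Esrrb were not called. Of 13 tested formative and primed genes 3 rose and 1 fell, with a median of 0.13. Besides Dnmt3l, Sox4 rose from 1 and 1 to 4 and 4, Etv4 rose from 79 and 84 to 114 and 125, and Etv5 fell from 274 and 280 to 233 and 237. Fgf5 and Fgf8 were listed at 0 in every library, but a listed 0 can be a failed estimate in this table.

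Of 19 genes of the LIF, WNT and ERK inputs 2 rose and 1 fell, with a median of 0.04. Spry4, an inhibitor in the ERK pathway, rose, from 13 and 15 in the WT libraries to 25 and 24 in those of Myh9 KO (limma log2 fold change 0.77 with adjusted p = 0.0423). Tcf7, a WNT effector, rose from 33 and 32 to 39 and 39 (0.26, adjusted p = 0.0303). The beta-catenin gene Ctnnb1 fell, with 316 and 314 in WT against 268 and 268 (log2 fold change -0.23, adjusted p = 0.00827). The LIF receptor genes Lifr and Il6st did not exceed 10 in any library and were not called. Of 20 tested paralogs and binding partners of the 10 genes 2 rose (Akt1, Lin28a) and 2 fell (Skp1a, and Sox2, which is also in the core list), with a median of -0.03.

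**Figure D3:**
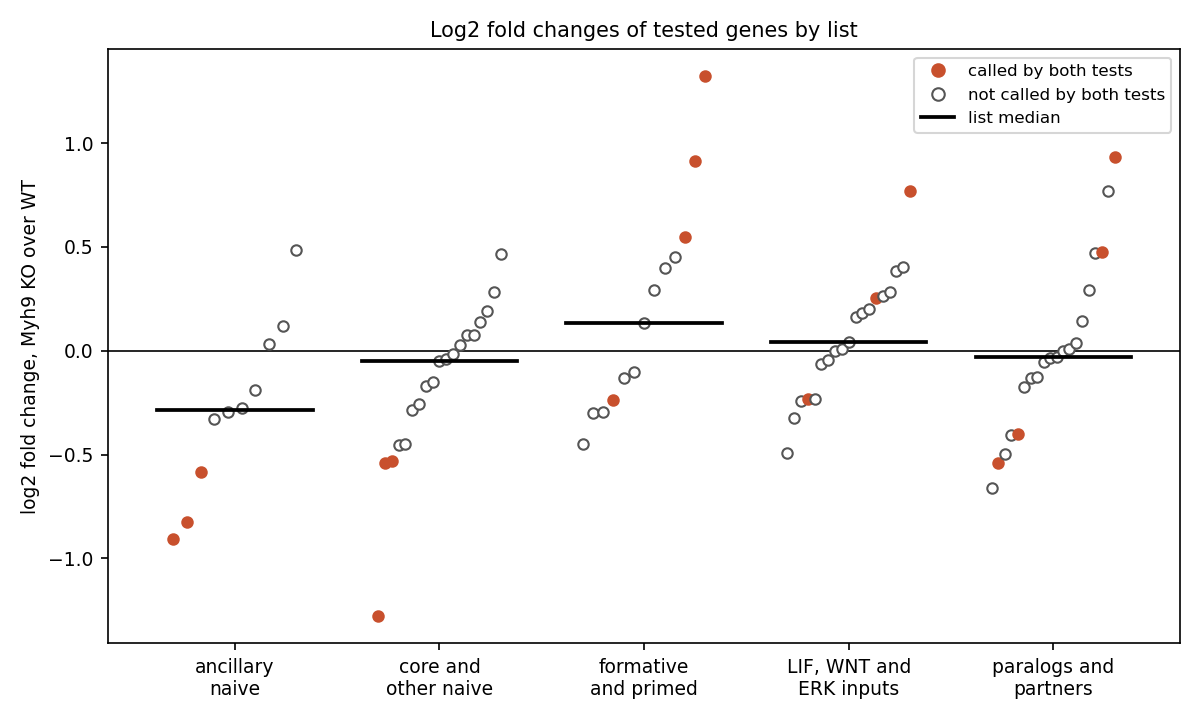
Log2 fold change, Myh9 KO over WT, of each tested gene in 5 lists (points, filled where called by both tests), with the list median (black line). The median of the ancillary naive genes is -0.29 and those of the other 4 lists shown run from -0.05 to 0.13; these medians were not tested against each other.

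The libraries were alike in total, from 992098 to 992317, and in the number of genes above 0, from 11653 to 11947. Myh9 (ENSMUSG00000022443) was at 83 and 100 in WT, then 9 and 9 in Myh9 KO, in the direction of the labels. Of 13 feeder fibroblast markers, 9 were listed at 0 in every library, Col1a1, Col1a2 and Col3a1 among them, and the summed values were 4 and 6 in WT, then 5 and 8 in Myh9 KO, with Thy1 (3 to 5) the highest. Markers of 2-cell-like cells, which arise rarely in ES cell cultures, moved with the groups: 12 of 13 tested members fell, and the sum over 14 genes was 159 and 175 in WT, then 3 and 2 in Myh9 KO. Of 5 tested primitive endoderm markers 2 rose, Col4a1 (12 and 11 to 24 and 24) and Hnf4a (0 and 0 to 2 and 3), and Sparc (214 and 212 to 155 and 162) fell, with a median log2 fold change of 1.00. The 10 markers summed to 228 and 227, then 189 and 197, but without Sparc to 14 and 15, then 34 and 35. Gata6, Sox7, Pdgfra and Foxa2 were listed at 0 throughout. Of 6 tested trophoblast markers 2 rose, Eomes and Krt18, with a median of 0.56; the 9 markers summed to 88 and 90, then 126 and 125, with Elf5, Krt7 and Hand1 listed at 0. The part of these cell states in the values of Nr0b1, Tcl1 and Fbxo15 was not tested. None of the 10 genes had over 1.44% of its 50-base words in other genes, with words matched on the transcript strand only. The count sees only exact matches to annotated transcripts, so diverged or unannotated copies on the same strand are missed. Exon bases shared with a gene on the opposite strand, 43.5% for Gbx2, 3.6% for Sox15 and 1.74% for Tbx3, are not covered by this count.

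**Figure D4:**
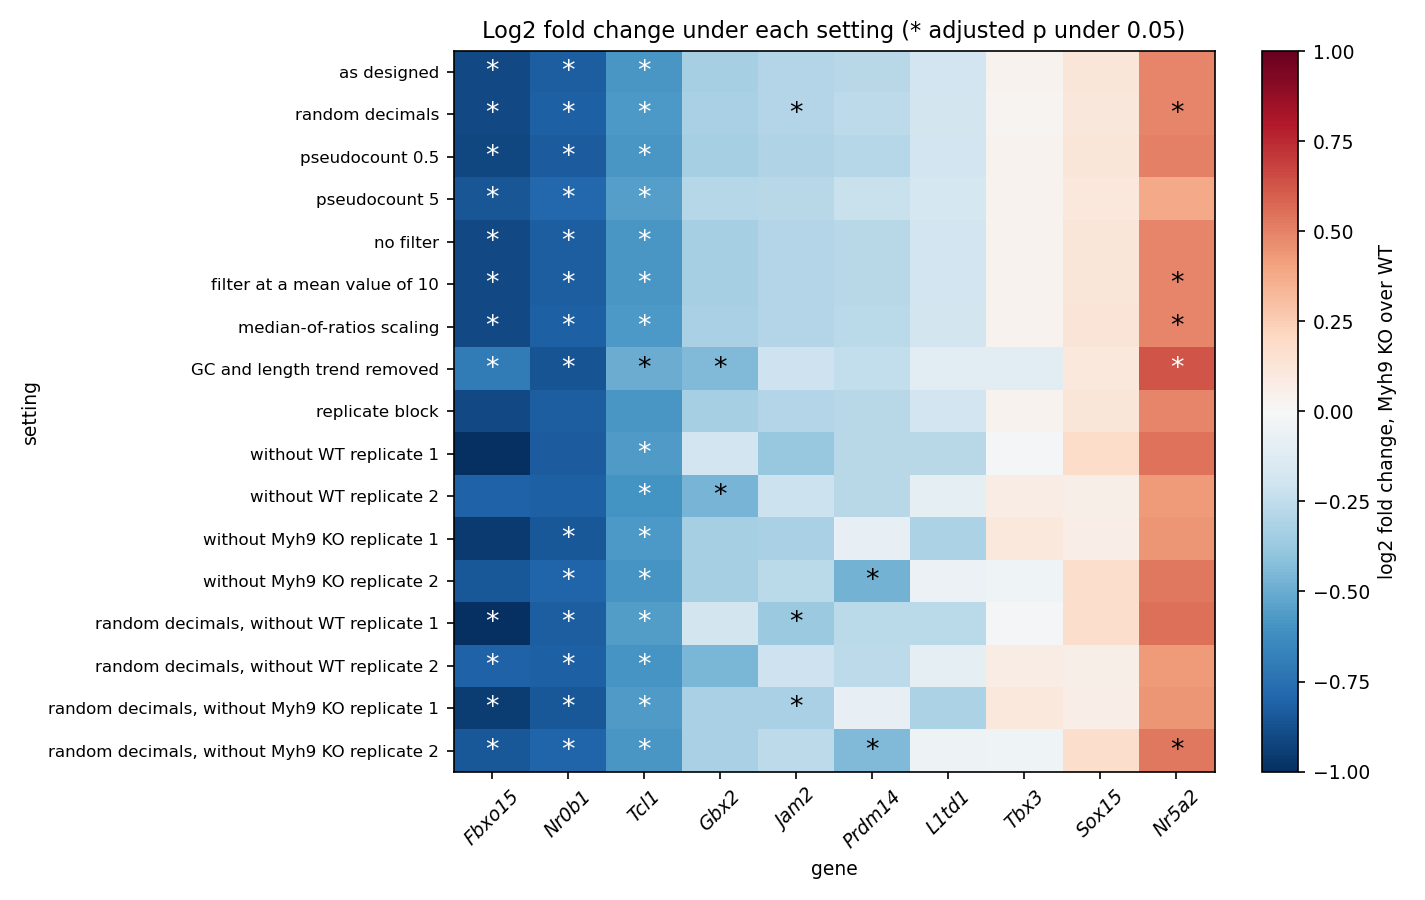
Log2 fold change, Myh9 KO over WT, of each gene (columns) under each analysis setting (rows), from blue (lower) to red (higher), with a star where the adjusted p was under 0.05. Tcl1 carries a star in every setting but the replicate block, Fbxo15 loses it in each designed test with a library left out, and Tbx3 changes sign between settings.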

How the data were processed

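RNA-seq was measured in 2 WT and 2 Myh9 KO libraries (poly-A selected mRNA, random-hexamer cDNA, per the labels' protocols). The authors deposited whole numbers with nearly equal totals, as values scaled to one sum and stripped of decimals would have; they are not counts, and the depth of each library is unknown. The score values were deposited by the authors after a scaling that the labels do not describe. Bowtie2 2.2.5, RSEM 1.3.0 and bcl2fastq are named without a role, with the builds mm10 and hg38, per the submitters' processing notes. Whether decimals were rounded or dropped, and whether values were divided by length, is not given in the sources used here. Of 50600 identifiers, 50376 were found in GENCODE vM21 (mm10), 92.91% with the same coordinates.

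Genes whose mean value reached 1 were fitted in R 4.3.3 by limma-trend (version 3.58.1) on log2(value + 1), Myh9 KO against WT, two-sided, Benjamini-Hochberg adjusted p under 0.05. This scale understates changes of low genes. Equal whole numbers leave no spread, so the fit was repeated after adding a uniform number between 0 and 1 to each value, with the median adjusted p of 25 draws. Both fits were tested on simulated data, and calls had to be made by both. Fold intervals are from the designed test. An exact permutation test of 2 against 2 libraries cannot go below p = 0.333 and was not used. Alternatives were other pseudocounts, filters and scaling, removal of a GC and length trend, a replicate block and leaving out each library. The members, lists and tests were chosen with earlier results of these data known. All 10 genes are named, with Myh9, up to 4 genes called by both tests from each other list (the 2 of highest mean value where none was called) and the 3 nearest patterns. Others were chosen after their values were seen. Of the lists, 2 genes are not reported here and were left out of the counts. Promoter sequences are from RefSeq on GRCm38.p6, and 6 of the 10 genes were scanned. Fbxo15, on chromosome 18, was left out of the scan, and no window was used for Prdm14, Tbx3 or Jam2.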

Additional observations from a re-analysis of the deposited data

How the results depend on the processing

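The 3 genes that fell kept their sign under all 16 alternatives, with log2 fold changes from -0.86 to -0.78 (Nr0b1), -0.60 to -0.50 (Tcl1) and -1.001 to -0.70 (Fbxo15), and adjusted p of at most 0.0752, 0.0797 and 0.1835. The designed test called 805 genes higher and 894 lower. Random decimals called 1238 and 1350, and removing the GC and length trend called 1404 higher and 1302 lower, so that higher calls outnumbered lower ones. Leaving out 1 library, with or without random decimals, gave 599 to 1257 higher and 691 to 1514 lower, and 0 to 1 of the 10 genes higher and 1 to 4 lower. The leave-out fits with random decimals were added after the data were seen. Nr5a2 was the 1 member called higher with random decimals, with the filter at a mean value of 10, with median-of-ratios scaling, with the trend removed and with random decimals without Myh9 KO 2. The sign of Tbx3 turned to -0.11 with the trend removed, to -0.01 without WT 1 (-0.014 with random decimals) and to -0.043 without Myh9 KO 2 (-0.042 with random decimals), while the highest value, without Myh9 KO 1, was 0.109. By their labels the same-numbered libraries share only a number, and whether they were prepared together is not given in the sources used here. The correlation of their deviations across genes was 0.04, which does not settle this. With a replicate block, which leaves 1 residual degree of freedom, 10 genes were higher and 44 lower. In that fit 0 of the 10 genes were called by limma in either direction (3 lower and 2 higher at an unadjusted p under 0.05). For this fit too, the share of all genes under the unadjusted threshold was not counted. Missing decimals limit the genes with low values, Nr5a2, Prdm14, Gbx2 and Sox15, most.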

Other observations

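Values of some members were set against those of a known partner in the same library, chosen after the values were seen and without a test. The Tcl1 value divided by the Akt1 value was 3.71 and 3.52 in WT, then 1.70 and 1.725 in Myh9 KO. The L1td1 value divided by the Lin28a value was 0.414 and 0.456, then 0.219 and 0.180. The Sox15 value divided by the Sox2 value was 0.130 and 0.115, then 0.198 and 0.190. The Fbxo15 value divided by the Skp1a value was 0.428 and 0.493, then 0.323 and 0.319. In each of these 4 pairs the groups did not overlap. The share of other gene pairs that split in this way was not counted. For single genes, both Myh9 KO libraries lay above both WT libraries in 26.2% of all genes tested and below in 27.3%. Ratios to Akt2, Cul1 and Rbx1, which were not called, were not computed. The partner gene was called by both tests in each pair, so this split in part restates those calls. L1td1 and Sox15 themselves overlapped between groups and were not called, so the split of their ratios rests on Lin28a and Sox2. The first 2 ratios were less than 0.5 times the WT level on average (0.474 and 0.458), and those of Sox15 and Fbxo15 were 1.59 and 0.697 times it.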
